A study of Homo sapiens with 12 samples.

Results

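GLY was added to SW480 cells that also received PUE, and the transcripts of those cells were compared with those of cells given PUE alone. SW480 is an established line from a human colorectal adenocarcinoma. The comparison takes the 3 libraries labelled GLY_PUE and the 3 labelled PUE, 6 of the 12 libraries in the series, each treated for 12 h per the labels and numbered 1 to 3 within its group. The other 6 libraries are 3 untreated and 3 GLY libraries, whose labels give 12, 13 and 14 h, and they supply the same contrast without PUE. The 2 contrasts have no library in common. What GLY and PUE stand for is not spelled out in the labels, so the abbreviations are kept. Separate cultures are not stated for the replicates, so the spread behind each p-value is that between libraries and may be technical. The extraction protocol also speaks of retinas, while the cell line label of every sample gives SW480; the free-text descriptions count upwards from SW480, one name per sample, and were not used.

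SW480 cells carry a truncated APC protein. APC belongs to the complex that marks beta-catenin for destruction, and without it beta-catenin stays in the nucleus, where it works with TCF factors to switch on Wnt target genes. Many of those targets are feedback inhibitors of the pathway itself. A separate set of programmes answers damage to proteins: the unfolded protein response raises chaperones of the endoplasmic reticulum, the heat shock response raises cytosolic chaperones, and ATF4 raises genes of amino acid supply and growth arrest. These programmes and the Wnt targets gave the groups of genes that are described first.

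The proximal promoters of 4 genes from these groups are shown because they hold exact matches to the motif named for their programme and because the genes are among those described below. Each line is a RefSeq window of assembly GRCh38.p14, from 250 bases before to 50 bases after the annotated start, written 5′ to 3′ along the gene, with the motif in capitals.
HSPA5: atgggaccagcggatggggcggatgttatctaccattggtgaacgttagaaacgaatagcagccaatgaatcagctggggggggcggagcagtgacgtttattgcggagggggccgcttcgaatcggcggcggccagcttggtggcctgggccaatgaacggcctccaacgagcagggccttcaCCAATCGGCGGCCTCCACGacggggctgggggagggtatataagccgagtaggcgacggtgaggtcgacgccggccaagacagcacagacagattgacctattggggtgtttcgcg
HSP90B1: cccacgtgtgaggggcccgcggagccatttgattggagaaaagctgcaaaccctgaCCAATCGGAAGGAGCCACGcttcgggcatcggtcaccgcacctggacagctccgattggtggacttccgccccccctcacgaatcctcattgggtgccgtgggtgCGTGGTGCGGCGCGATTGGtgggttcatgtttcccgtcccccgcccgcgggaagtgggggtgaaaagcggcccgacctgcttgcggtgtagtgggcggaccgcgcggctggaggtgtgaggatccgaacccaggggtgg
HSPA6: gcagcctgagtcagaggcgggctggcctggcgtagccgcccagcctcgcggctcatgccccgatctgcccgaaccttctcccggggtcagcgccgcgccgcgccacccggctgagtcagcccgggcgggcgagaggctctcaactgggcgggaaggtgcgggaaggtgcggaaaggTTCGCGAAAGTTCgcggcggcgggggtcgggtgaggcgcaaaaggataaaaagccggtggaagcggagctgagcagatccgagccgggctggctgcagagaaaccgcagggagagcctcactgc
SP5: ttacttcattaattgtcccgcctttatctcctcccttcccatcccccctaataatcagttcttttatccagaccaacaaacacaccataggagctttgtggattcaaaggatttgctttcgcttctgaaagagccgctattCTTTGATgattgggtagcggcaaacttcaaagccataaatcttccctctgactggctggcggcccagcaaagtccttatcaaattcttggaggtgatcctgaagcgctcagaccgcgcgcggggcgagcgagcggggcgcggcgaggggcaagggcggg

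The HSPA5 window lies at chr9:125241294-125241593 on the minus strand, and its capitals mark the endoplasmic reticulum stress element (CCAAT and CCACG with 9 bases of any kind between them), which begins 66 bases before the start. HSP90B1, at chr12:103930160-103930459 on the plus strand, holds that element at 194 bases and, on the opposite strand, at 89 bases before its start. In HSPA6, at chr1:161524290-161524589 on the plus strand, a heat shock element (alternating TTC and GAA, 3 in all, with 2 bases of any kind between them) begins 74 bases before the start. In SP5, at chr2:170715087-170715386 on the plus strand, the TCF motif CTTTGAT begins 109 bases before the start. Both strands were searched. The endoplasmic reticulum stress element was rare: 22 of 27305 promoters in the RefSeq table held it (0.0806%), and so did 3 of the 11 unfolded protein response genes tested here, XBP1 being the third. The heat shock element was in 133 promoters (0.487%) and in 1 of the 8 heat shock genes with a promoter in the table. The TCF motif was in 721 promoters (2.64%) and in 2 of 14 Wnt targets, SP5 and FGF18. Among genes called lower and called higher, with a promoter matched, it was in 1.615% and 1.473%. For the heat shock element these shares were 0.239% and 0.368%, and for the endoplasmic reticulum stress element 0% and 0.737%. Apart from the last element, the shares in called genes were below those of all promoters. A match is a description of the letters in these windows.

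The deposited table is a selected list of 3699 genes, each of which the authors marked as changed in at least 1 of their 6 comparisons. The authors' deposited table marks 2565 of them for GLY_PUE against PUE itself, and 108 of those were listed through that comparison alone. Counts of calls within the table are therefore no independent evidence of a response. Members of a gene list that the authors marked in no comparison are absent, so the counts below cannot show them. The table holds 29 of 38 Wnt targets, 11 of 22 unfolded protein response genes and 9 of 20 heat shock genes. It also holds 15 of 30 ATF4 targets, 10 of 26 p53 targets and 3 of 26 apoptosis regulators. Of other lists it holds 13 of 40 Wnt components, 10 of 25 NRF2 targets and 7 of 13 metallothionein and zinc genes. For immediate early genes it is 17 of 33, keratins 12 of 28, inflammatory genes 7 of 21 and interferon genes 12 of 25. For hypoxia it is 6 of 22, sterol synthesis 6 of 26, intestinal identity 7 of 28 and aryl hydrocarbon receptor 5 of 10. It holds 4 of 13 YAP genes, 4 of 14 autophagy genes, 5 of 11 EGFR genes and 7 of 12 histones. The authors' deposited table marks 2878 genes for GLY against untreated, a choice that used none of the 6 libraries compared here. Library totals recovered from the table ran from 19.7 to 20.3 M reads in PUE and from 21.1 to 21.4 M in GLY_PUE, and the listed genes held 14.2% ± 0.509 and 15.1% ± 0.109 of the reads (SD, n = 3). Values below are CPM, counts scaled to a library total of 1e+06 reads, and a count of 0 allows up to 0.150 CPM in PUE and 0.141 CPM in GLY_PUE, counting error only. In both groups libraries 1 and 2 were close (chi-square per gene 2.14 in PUE and 5.09 in GLY_PUE), while library 3 stood apart (52.1 to 73.2). The first principal component held 89.1% of the variance and separated the groups, and the second, with 7.40%, set both libraries numbered 3 apart from the rest.

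Most of the tested genes differed between GLY_PUE and PUE, and the decreases were the more numerous. Of 3236 genes tested, 2871 passed edgeR's quasi-likelihood test at an adjusted p under 0.05 (88.7%), with 721 higher (22.3%) and 2150 lower (66.4%) in GLY_PUE. In 2902 genes (89.7%) the 3 values of 1 group all lay above the 3 of the other. The median gene was at a log2 fold change of -1.04. The split depends on the scale. With TMM, which centres the listed genes on each other, log2 fold changes were higher by 1.01 at the median, and 816 genes were higher and 539 lower. TMM takes most genes as unchanged, whereas these genes were listed because the authors marked them as changed. Of the tested genes that the authors marked for GLY_PUE against PUE, 626 were higher and 1698 lower. Which scale is nearer the truth was not tested. Of the 2871 calls, 541 changed sign under TMM. Groups of genes below are given with their TMM counts, and their calls stand beside the 22.3% higher and 66.4% lower of all tested genes. Without the libraries numbered 3, 748 genes were higher and 2280 lower. Among the larger changes the directions were more even: 146 genes were higher and 377 lower by at least 2 on the log2 scale, and 27 were higher and 28 lower by at least 4. In bulk RNA, fewer cells of a kind and less RNA per cell cannot be told apart.

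The targets of Wnt signalling were lower with GLY. Of 29 tested targets, 24 fell, 3 rose and 2 were not called, where 66.4% of all tested genes were called lower and 22.3% higher. The median log2 fold change of the targets was -2.11, against -1.04 over all tested genes. TMM left 21 lower and 3 higher, with a median of -1.05 against -0.03. AXIN2, a scaffold of the destruction complex and the most widely used read-out of the pathway, stood at 526.5, 532.5 and 593.4 CPM in PUE and at 121.7, 118.2 and 89.6 CPM in GLY_PUE. All 3 GLY_PUE values were thus far below the lowest PUE value, and the log2 fold change was -2.33 (SE 0.17, adjusted p = 0.000141). RNF43, a ligase that removes Wnt receptors from the cell surface, went from 97.0, 97.7 and 114 to 13.5, 14.3 and 10.5 CPM (-3.01, SE 0.17). APCDD1, a membrane inhibitor of Wnt, had 492.8, 497 and 922.5 CPM in PUE and 26.1, 27.0 and 23.6 CPM in GLY_PUE. PUE library 3 was the highest by a wide margin, the groups were well apart, and the log2 fold change was -4.64 (SE 0.30, adjusted p = 0.000107).

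SP5, a transcription factor induced by beta-catenin, whose promoter is printed above, stood at 127.6, 123.3 and 161.5 CPM in PUE and at 9.31, 10.0 and 7.90 CPM in GLY_PUE. It fell by 3.92 on the log2 scale (SE 0.18), and its groups were far apart. NKD1, a feedback inhibitor that acts on Dishevelled, fell by 4.05 and PROX1, a homeobox factor, by 4.06, and in both PUE library 3 was about as high again as the other PUE libraries. The stem cell factor ASCL2 fell by 3.00. BMP4, a growth factor of the BMP family, fell by 2.69, from 109.5, 116 and 138.7 to 17.3, 21.4 and 17.8 CPM. DKK4, a secreted Wnt inhibitor, was at 14.0, 11.4 and 67.6 CPM in PUE and at 1.02, 1.01 and 1.17 CPM in GLY_PUE. Its log2 fold change of -4.85 was -3.56 without PUE replicate 3. LGR5, the intestinal stem cell receptor for R-spondins, was scarce: 1.34, 1.28 and 5.59 CPM in PUE, and 0.0468, 0 and 0.189 CPM in GLY_PUE, at or near the limit of detection. The LGR5 log2 fold change of -5.02 became -3.96 without PUE replicate 3 and -6.53 without GLY_PUE replicate 3.

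Among the targets, MYC, DKK1 and VEGFA rose. MYC, a driver of growth that beta-catenin induces in the colon, stood at 347.4, 367.3 and 477.2 CPM in PUE and at 1206, 1255 and 1185 CPM in GLY_PUE (1.61, SE 0.17, adjusted p = 0.000253). Its groups did not overlap, and its direction was opposite to that of AXIN2. DKK1, a secreted inhibitor related to DKK4, went from 7.46, 7.53 and 8.59 CPM to 31.7, 32.2 and 20.9 CPM (1.85), while DKK4 fell. CCND1, the cyclin of early G1, was at 1621, 1638 and 1472 CPM in PUE and at 657.4, 719.9 and 409.6 CPM in GLY_PUE. Its log2 fold change was -1.40 (SE 0.23, adjusted p = 0.00106) and, under TMM, -0.38 with the call lost. FZD7 (-0.70, or 0.30 under TMM) and SOX9 (-0.72, or 0.32 under TMM) were called on neither scale. Both were called lower with the replicate number as a block (-0.69 and -0.80, adjusted p = 0.000991 and 0.0266) and, as the count of 26 lower shows, without the libraries numbered 3. The mean FPKM, a level per transcript length, was in PUE 371 for CCND1, 133 for AXIN2, 88.7 for MYC and 0.60 for LGR5, and in GLY_PUE it was 140, 26.7, 271 and 0.02.

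**Figure D1:**
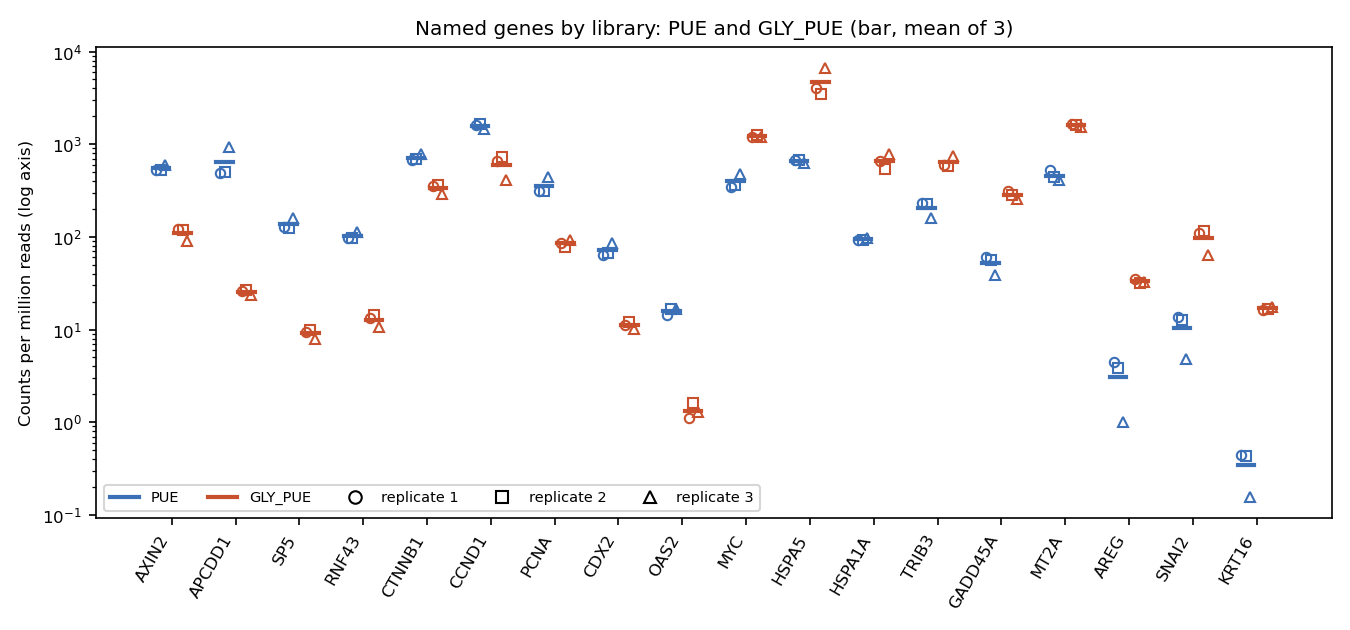
CPM (log axis) of 18 named genes in the 3 PUE (blue) and 3 GLY_PUE (orange) libraries, with symbols for the replicate number and a bar for the mean of 3. The 2 groups are apart in every gene drawn; AXIN2 lies at 526.5 to 593.4 CPM in PUE and 89.6 to 121.7 CPM in GLY_PUE, and HSPA5 at 621 to 677 and 3445 to 6576 CPM.

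Of 40 core components of the pathway on the list, the table holds 13, and these lay near its middle. The rest were marked in no comparison. Of the 13 tested components, 11 fell, 1 rose (DVL1, a Dishevelled protein, 0.82) and 1 was not called (FZD10, a receptor). The median log2 fold change of the 13 was -1.12. That median is close to that of all tested genes, and TMM gave 4 lower and 3 higher with a median of -0.10. The TCF factor gene TCF7L2 was called on both scales in opposite directions, at -0.56 on library totals and 0.45 under TMM (adjusted p = 0.0441). With the replicate number as a block, 2 components were higher, FZD10 being the other (1.01, adjusted p = 0.00823). CTNNB1, which encodes beta-catenin, stood at 667.8, 690.4 and 793.9 CPM in PUE and at 356.3, 361.9 and 292.9 CPM in GLY_PUE. The groups did not overlap and the log2 fold change was -1.09 (SE 0.16, adjusted p = 0.000653), but under TMM it was -0.06 and not called. APC had 64.3, 60.55 and 49.3 CPM in PUE and 39.2, 48.4 and 31.7 CPM in GLY_PUE, with 1 GLY_PUE library just under the lowest PUE library. Its log2 fold change of -0.55 (adjusted p = 0.0282) became 0.46 under TMM, not called, and was no longer called without PUE replicate 1 or 2 or without GLY_PUE replicate 1 or 3 (adjusted p from 0.0648 to 0.0907), nor when all 12 libraries shared 1 spread. The components whose decrease held on both scales included TLE4, a co-repressor, at -2.75, the receptors FZD2 at -2.33 and FZD1 at -1.83, and WLS, which carries Wnt proteins to the surface, at -1.99.

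Chaperones of the endoplasmic reticulum rose together. Of the 22 genes on the unfolded protein response list, 11 were tested. All 11 were higher on both scales, with a median log2 fold change of 1.39, where 22.3% of all tested genes were called higher. HSPA5, the main chaperone of that compartment (BiP), was at 674.5, 677.2 and 621 CPM in PUE and at 4018, 3445 and 6576 CPM in GLY_PUE. GLY_PUE library 3 was the highest, every GLY_PUE value was far above PUE, and the log2 fold change was 2.83 (SE 0.27, adjusted p = 0.000185). DNAJB9, an HSPA5 co-chaperone, went from 21.04, 22.5 and 16.2 to 71.2, 65.5 and 91.7 CPM (1.93, SE 0.20). HERPUD1, a part of the degradation machinery for misfolded proteins, rose by 1.78 and HYOU1, a chaperone that exchanges nucleotide on HSPA5, by 1.62. HSP90B1, with 2 stress elements in the promoter above, rose by 1.05, and XBP1, a transcription factor of the response, by 1.08.

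Cytosolic heat shock genes behaved in the same direction. Of 20 on the list, 9 were tested, and all 9 were higher on both scales, with a median of 2.07. On library totals, 22.3% of all tested genes were called higher. HSPA1A, an inducible HSP70, stood at 92.25, 93.7 and 98.1 CPM in PUE and at 662.4, 540.7 and 792.1 CPM in GLY_PUE (2.81, SE 0.18). Its neighbour HSPA1B rose by 2.07, but the coding sequences of the pair are nearly identical and their reads may have been shared. HSPA6, an HSP70 that is low in unstressed cells, went from 0.348, 0.492 and 0.559 to 4.92, 3.81 and 8.05 CPM (3.57, SE 0.39). CRYAB, a small heat shock protein, rose by 3.16, HSPH1, a large HSP110 chaperone, by 1.61, and BAG3, which couples HSP70 to autophagy, by 1.51. Per transcript length, HSP90AA1, the inducible cytosolic HSP90, had a mean FPKM of 1180 in PUE and 2411 in GLY_PUE, and HSPA5 one of 167 and 1190.

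Genes listed as ATF4 targets rose in 14 of 15 cases, where 22.3% of all tested genes were called higher. ATF4 itself is not in the table, and its activity was not measured. SLC7A11, SESN2 and ATF3 also stand on the NRF2, p53 and immediate early lists. The median of the ATF4 targets was 1.37, and TMM called 14 higher and none lower. VLDLR, a lipoprotein receptor, was the member that fell on the scale of library totals. TRIB3, a pseudokinase, was at 229.5, 229 and 160.1 CPM in PUE and at 599.6, 589.1 and 751 CPM in GLY_PUE (1.65, SE 0.20). SESN2, an inhibitor of mTORC1 signalling, went from 75.9, 76.2 and 35.8 to 295.1, 301.1 and 345 CPM (2.32). In both, PUE library 3 was the lowest of the PUE libraries and GLY_PUE library 3 the highest of all. DDIT3, which encodes CHOP, rose by 1.66, ATF3, a stress-induced repressor, by 2.00, CEBPB by 1.42 and STC2, a secreted glycoprotein, by 1.37. The antioxidant genes listed as NRF2 targets were higher in 8 of 10 cases with a median of 1.09 (9 under TMM), and GPX2, a gut glutathione peroxidase, was the exception, falling by 2.85. HMOX1, the haem-degrading enzyme, rose by 2.54, SRXN1, which restores peroxiredoxins, by 1.51, and GCLC, the first enzyme of glutathione synthesis, by 1.22. SLC7A11, the cystine importer, was 0.88 higher and lost its call when all 12 libraries shared 1 spread (adjusted p = 0.0612).

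Metal-binding metallothioneins were mostly higher: 5 of the 7 genes of this and the zinc transport list rose and 2, MT1A and the zinc importer SLC39A10, fell, while TMM called 5 higher and none lower, with MT1A at 0.05. Of all tested genes, 22.3% were called higher and 66.4% lower on library totals. MT2A stood at 524.7, 441.8 and 411.4 CPM in PUE and at 1656, 1606 and 1535 CPM in GLY_PUE (1.80, SE 0.16), with narrow groups far apart. MT1X rose by 1.65 and MT1E by 1.26, although the metallothioneins are close paralogs whose reads can be shared. SLC30A2, a zinc exporter, went from 8.65, 8.16 and 3.10 to 33.6, 31.7 and 23.8 CPM (2.16).

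**Figure D2:**
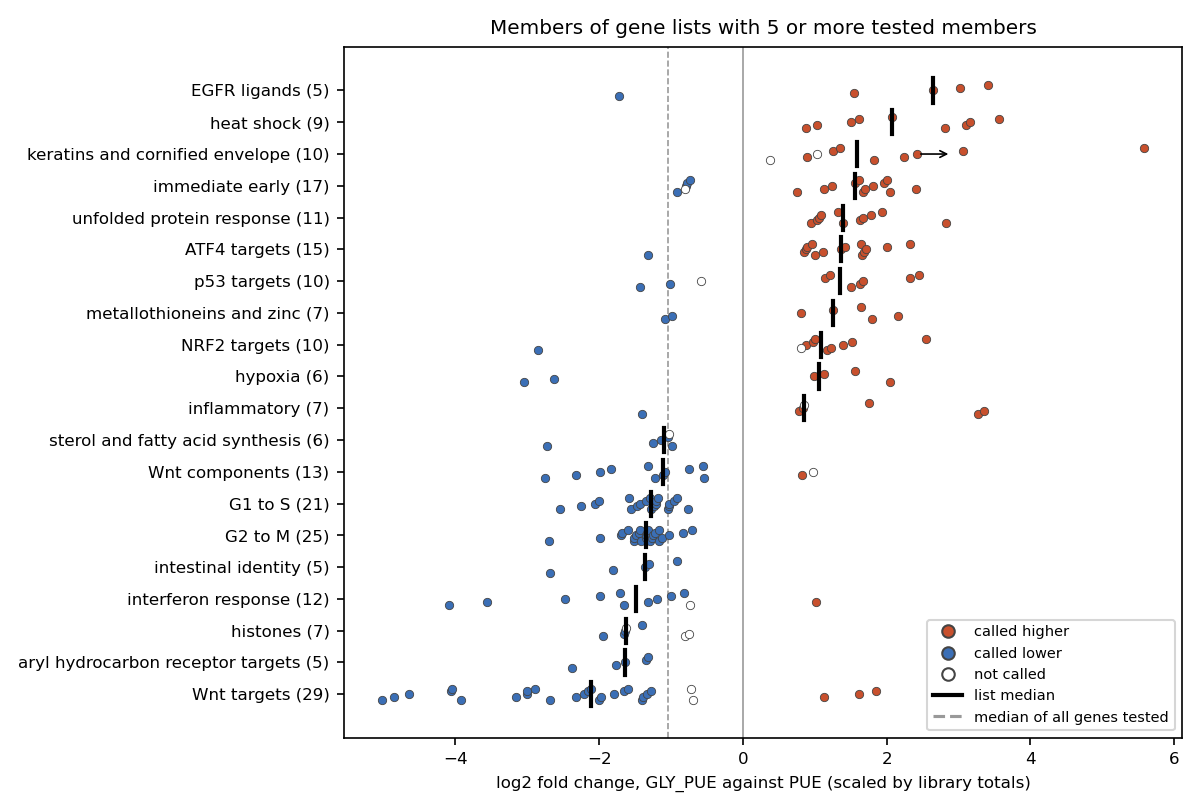
Log2 fold change of GLY_PUE against PUE for each tested member of 20 gene lists, coloured by call, with the list median (black bar) and the median of all 3236 genes tested (dashed, -1.04). Every member of the heat shock and unfolded protein response lists lies to the right of 0, and the member furthest to the left is a Wnt target (LGR5, -5.02); the arrow marks SPRR1B, at 0 in every PUE library and drawn at its lower bound.

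Genes of growth arrest and of the cell cycle moved apart. Of 10 targets of p53, 7 rose, 2 fell and 1 was not called, where 22.3% of all tested genes were called higher. The median of these targets was 1.36, and TMM gave 7 higher and 1 lower. GADD45A, a growth arrest gene, was at 61.3, 56.7 and 39.3 CPM in PUE and at 315.7, 285.8 and 253.8 CPM in GLY_PUE (2.44, SE 0.21). CDKN1A, the p21 inhibitor of cyclin-dependent kinases, rose by 1.50, SFN, the 14-3-3 sigma protein, by 1.63, and PLK3, a stress-responsive kinase, by 1.67. DDB2 and RRM2B, both of DNA repair, fell by 1.43 and 1.02, and under TMM DDB2 alone of the pair was called (-0.41). Of the 3 apoptosis regulators tested, the death receptor gene TNFRSF10B rose by 1.21 and BMF, a pro-apoptotic BH3-only protein, fell by 2.93. BCL2, which protects from apoptosis, was at -0.93 (adjusted p = 0.0167) and at 0.08 under TMM, not called. Its call also ended without PUE replicate 2 or GLY_PUE replicate 1 or 2 (adjusted p from 0.0514 to 0.0630).

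All 21 tested genes of DNA replication and all 25 of mitosis were lower, where 66.4% of all tested genes were. Their medians of -1.29 and -1.34 lie near the median of all tested genes. TMM kept 6 and 7 of these genes lower and none higher, with some members above 0, such as GINS4, RRM1, POLA1, BUB1 and ECT2. PCNA, the sliding clamp of DNA polymerases, was at 310.8, 312 and 447.9 CPM in PUE and at 86.6, 78.1 and 92.0 CPM in GLY_PUE. Its groups were wide apart, and it fell by 2.06 (SE 0.19) on library totals and by 1.03 under TMM. CENPE, a kinetochore motor, fell by 1.99 (by 0.97 under TMM), CDT1, which licenses replication origins, by 1.56 (0.54 under TMM), E2F1, an S phase transcription factor, by 1.58 (0.56) and BIRC5, or survivin, by 1.60 (0.58). CCNB1, the mitotic cyclin, at -1.33, CENPF at -1.44 and the replication factor GINS1 at -1.35 lost their calls under TMM. Histone genes were called lower in 4 of 7 cases, where 66.4% of all tested genes were, and in none under TMM, and with the replicate number as a block all 7 were lower. HIST2H2BE was at 28.5, 29.2 and 20.3 CPM in PUE and at 8.98, 9.61 and 6.35 CPM in GLY_PUE (-1.64).

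Growth factors, early response genes and keratins made up a further part of the increases. Of 17 immediate early genes, 12 rose, 4 fell and 1 was not called, where 22.3% of all tested genes were called higher. Their median was 1.56, and TMM called 12 higher and none lower. The members that fell, NR4A2 (-0.74), DUSP6 (-0.79), SPRED1 (-0.78) and SPRY2 (-0.91), include 3 feedback inhibitors of ERK signalling, and under TMM all 4 were at 0.12 to 0.26 and not called. FOSL1, an AP-1 subunit, stood at 413.0, 410.4 and 128.8 CPM in PUE and at 1192, 1195 and 935 CPM in GLY_PUE (1.80). Both libraries numbered 3 were the lowest of their group, and the groups did not overlap. DUSP5, a phosphatase of ERK, rose by 2.41, KLF6 by 2.05, DUSP1 by 1.96 and MAFF by 1.69. Of 5 genes of the EGFR family and its ligands, 4 rose (4 higher and none lower under TMM) and ERBB3, a receptor, fell by 1.72 (not called under TMM, -0.71). AREG, an EGFR ligand, went from 4.43, 3.89 and 1.02 to 35.2, 31.9 and 32.3 CPM (3.41, SE 0.45). HBEGF and EREG, also ligands, rose by 3.02 and 2.64, and EGFR itself by 1.54.

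KRT16, a keratin of activated epidermis, was the largest increase among called genes with a mean log2 CPM of at least 1: 0.448, 0.435 and 0.157 CPM in PUE against 16.3, 16.9 and 17.7 CPM in GLY_PUE (5.58, SE 0.33, adjusted p = 0.000107). Of 10 tested keratins and cornified envelope genes, 8 rose and 2 were not called, with a median of 1.59. Of all tested genes, 22.3% were called higher. TMM called all 10 higher, and 816 of the 3236 tested genes. KRT6A, a partner of KRT16, rose by 2.23, KRT17 by 3.06 and KRT81 by 1.83, and as keratin paralogs they can share reads. SPRR1B, a cornified envelope protein, had no read in PUE and 0.799 CPM ± 0.125 (SD, n = 3) in GLY_PUE, at least 5.34-fold higher against a limit of 3 counts per library. At that bound for SPRR1B the list median stays 1.59. With no PUE read, SPRR1B could pass the expression filter only through GLY_PUE, so the direction of its call was fixed. SPRR2D, of the same family, was 3.88 higher, from 5.07, 4.96 and 1.26 to 39.5, 37.4 and 90.1 CPM, and 2.94 higher without the libraries numbered 3.

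IL11, a cytokine of the interleukin-6 family, led the inflammatory genes, of which 5 of 7 rose (6 higher and none lower under TMM) and ICAM1, an adhesion molecule, fell by 1.40 (not called under TMM, -0.39). For the lists in this paragraph, the shares over all tested genes were 22.3% called higher and 66.4% called lower. IL11 was at 4.97, 5.89 and 3.48 CPM in PUE and at 48.0, 47.5 and 50.8 CPM in GLY_PUE (3.35, SE 0.22). CSF2, which encodes GM-CSF, rose by 3.27, or by 3.98 without PUE replicate 2. SNAI2, a transcription factor of epithelial to mesenchymal transition, went from 13.8, 12.8 and 4.83 to 110.8, 114.8 and 63.5 CPM and was 3.20 higher beside CLDN4, an epithelial tight junction protein, at 1.03. Of 4 genes read out for YAP, AXL (2.07), CYR61 (1.84) and F3 (1.12) rose, also under TMM. TEAD1, the partner of YAP, was at -0.48 (adjusted p = 0.0485). It was at 0.54 under TMM, not called, and lost its call without any 1 of the 6 libraries other than GLY_PUE replicate 2 (adjusted p from 0.0509 to 0.120). Of the 6 hypoxia genes, HK2 (2.04), NDRG1 (1.56), VEGFA (1.13) and P4HA2 (0.99) rose, while ANKRD37 (-3.04) and EGLN3 (-2.63) fell, on both scales. Of 4 autophagy and lysosome genes, 3 rose on both scales. MAP1LC3B, the autophagosome protein LC3B, rose by 1.52, WIPI1 by 1.26 and ULK1, the kinase that starts autophagy, by 0.89 (adjusted p = 0.0542 and 0.0560 without PUE replicate 1 and 2). GPNMB, a lysosomal glycoprotein, was at -0.84 and not called (adjusted p = 0.0615; 0.18 under TMM), but was called with the replicate number as a block (-0.86, adjusted p = 0.0130), without PUE replicate 2 and without the libraries numbered 3.

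Several further lists held mostly lower genes on library totals, where 66.4% of all tested genes were called lower, and few of those calls held under TMM. Of 12 interferon-stimulated genes, 10 fell and ISG20, a nuclease, rose by 1.01, with a median of -1.49, and TMM gave 4 lower and 1 higher with a median of -0.49, with IFIT1 turning from -0.82 to 0.21. OAS2, a synthase of 2-5A that activates RNase L, stood at 14.2, 16.5 and 16.8 CPM in PUE and at 1.12, 1.60 and 1.28 CPM in GLY_PUE (-3.56, SE 0.22, adjusted p = 0.000107). OAS3 fell by 1.99 and IFIT3 by 1.65 (by 0.64 under TMM, not called). CMPK2 was near the limit of detection in GLY_PUE, at 0.0468, 0 and 0.142 CPM against 0.984 to 1.47 CPM in PUE, and its -4.09 was -5.31 without GLY_PUE replicate 3. CDX2, the master regulator of intestinal identity, went from 64.6, 66.3 and 85.7 to 11.2, 12.2 and 10.2 CPM (-2.69, SE 0.17). Of 28 genes on the intestinal list, the table holds 7, and 5 were tested. CDX2 was the 1 of these 5 called lower on both scales, the other 4 being called lower on library totals only (medians -1.36 and -0.33). VIL1, a protein of microvilli, at -1.36, lost its call under TMM (-0.33).

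All 5 targets of the aryl hydrocarbon receptor fell, with a median of -1.65, and 2 did so under TMM: UGT1A6, a glucuronosyltransferase whose exons are shared within its gene cluster, at -2.38 on library totals and -1.38 under TMM, and AHRR, the receptor's repressor, at -1.35 and -0.33. CYP1A1 (-1.76) and CYP1B1 (-1.65), the oxidising enzymes of this set, lost their calls under TMM. Of 6 genes of sterol and fatty acid synthesis, 5 fell, with a median of -1.10, and 1 fell under TMM, with a median of -0.06. These medians are close to those of all tested genes (-1.04 and -0.03). ELOVL6 (-1.14) and IDI1 (-0.99) were not called under TMM, where IDI1 was at 0.05. SLC1A5, the glutamine transporter, was at 2178, 2184 and 3069 CPM in PUE and at 1072, 1048 and 1288 CPM in GLY_PUE (-1.12, not called under TMM at -0.10), while SLC3A2, the heavy chain that SLC7A11 pairs with, rose by 0.85.

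The largest single changes included genes outside these groups. TNFRSF11B, which encodes osteoprotegerin, fell by 6.06 (SE 0.48), from 27.0, 28.4 and 61.9 CPM to 0.796, 0.612 and 0.331 CPM, and by 5.29 without the libraries numbered 3. HAS2, a hyaluronan synthase, fell by 4.61 and NFE2, a transcription factor, by 4.43. NEURL1B, a ubiquitin ligase of Notch ligands, fell by 3.98. ETV1, an ETS factor, was at -3.97 (-3.26 without PUE replicate 3), DACH1 at -4.02 (-3.28) and PLPPR4 at -5.37 (-4.68). In the other direction, AKAP12, a scaffold for protein kinase A, was abundant and rose from 408.8, 379.7 and 143.7 to 3990, 4165 and 2860 CPM (3.56, SE 0.42). CREB5, a transcription factor, went from 0.646, 0.639 and 0.308 to 14.7, 16.2 and 44.3 CPM. Its log2 fold change of 5.54 was 4.84 without GLY_PUE replicate 3, which was the highest library. ROBO4, a guidance receptor of endothelium, rose by 4.32 (3.66 without GLY_PUE replicate 3), PAK6, a kinase, by 4.30 (5.76 without PUE replicate 3) and EDA2R, a receptor of the TNF family, by 3.44 (2.74 without the libraries numbered 3). ARL14EPL, at 3.50, was at 2.45 without GLY_PUE replicate 3. PALM2-AKAP2, a read-through transcript whose reads overlap those of its component genes, was at 1.27, 0 and 0 CPM in PUE and at 9.001, 8.26 and 9.55 CPM in GLY_PUE, and its 4.35 was 10.53 without PUE replicate 1. The 10.53 is no measured size, because the remaining PUE libraries were at 0.

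Within each replicate number, the GLY_PUE library differed from the PUE library of that number in the same direction for nearly every call. Differences of log2(CPM + 0.5) had that direction in all 3 numbers for 719 of the 721 genes called higher and 2148 of the 2150 called lower. These counts are no separate evidence, because the calls came from the same 6 libraries. Groups that do not overlap, as in 2902 of 3236 tested genes, fix the direction in every number. The size was not even across numbers. Over the genes called higher the median difference was 1.05, 1.06 and 1.57 in numbers 1, 2 and 3, and over those called lower it was -1.09, -1.04 and -1.24. For the Wnt targets it was -1.74, -1.75 and -2.30, and for the unfolded protein response 1.20, 1.01 and 1.82. The third pair thus gave the widest difference in these groups.

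**Figure D3:**
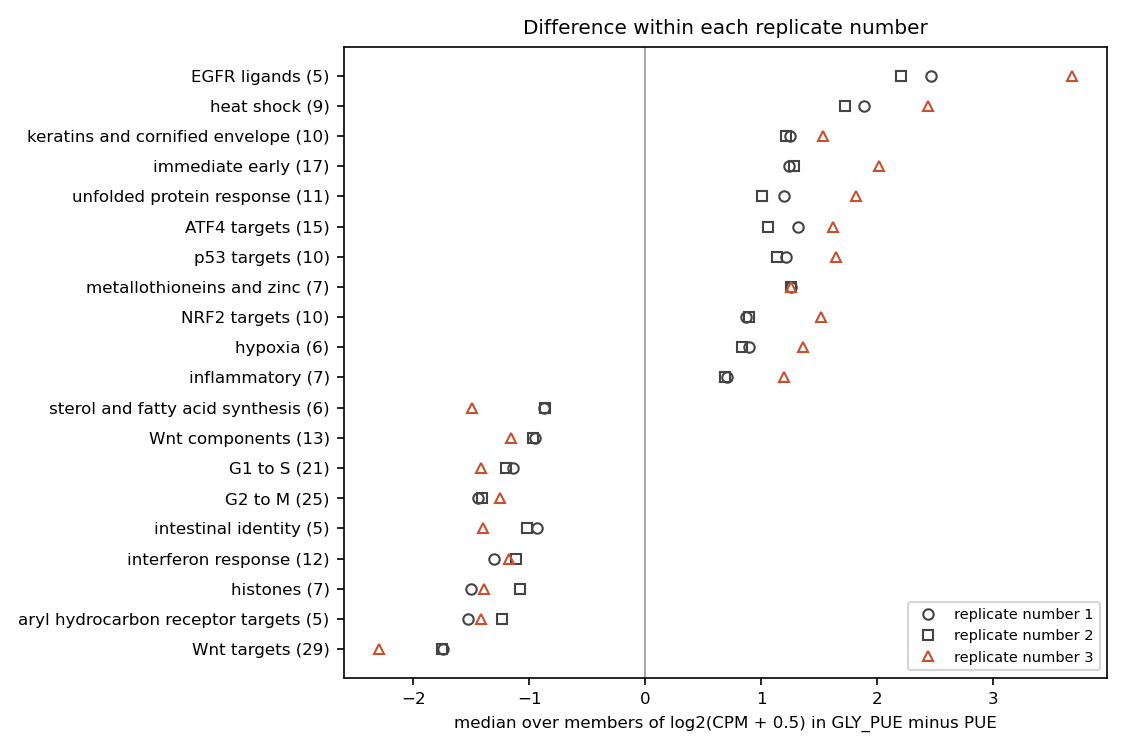
Median over the tested members of each list of the difference of log2(CPM + 0.5), GLY_PUE minus PUE, within replicate numbers 1 (circle), 2 (square) and 3 (orange triangle). All 3 numbers lie on the same side of 0 in each of the 20 lists; for the Wnt targets they are at -1.74, -1.75 and -2.30.

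Genes that differed with GLY in the absence of PUE differed in the same direction in its presence. GLY against untreated, tested on its own 6 libraries, called 2437 of 3224 genes (75.6%), 586 higher and 1851 lower (762 and 239 under TMM). Of the 577 called higher there and tested in both, 555 were called higher in GLY_PUE against PUE and none lower. Of the 1813 called lower there, 1705 were called lower and none higher. For the genes that the authors' deposited table marks for GLY against untreated, a choice made without these libraries, 574 of 617 marked higher were called higher (93.0%) and 1815 of 2002 marked lower were called lower (90.7%), where 22.3% and 66.4% of all tested genes were called. These shares hold on library totals, as TMM called 539 genes lower in all. Of genes tested in both contrasts, 2570 marked ones had the same sign in 99.5% (Spearman 0.904). The 576 unmarked ones had it in 96.5% (Spearman 0.589). Across 3146 genes tested in both contrasts, the log2 fold changes correlated with r = 0.955 (Spearman 0.875) and had the same sign in 99.0%. This is a description across genes, which are not independent replicates. All points share the table's selection for change, and libraries numbered 3 stand apart in PUE, GLY_PUE and untreated alike. In GLY the libraries were not close to each other, and library 1 stood furthest apart (chi-square per gene 181 and 256). Between GLY libraries 2 and 3 it was 74.8, about as large as the 73.2 and 70.3 of PUE library 3. The share with the same sign was 75.8% under TMM, and r was 0.884 without the libraries numbered 3. The slope was 0.945, with median log2 fold changes of -1.04 with PUE and -1.14 without.

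For single genes the values were as follows. AXIN2 was at -2.33 with PUE and -2.37 without it, APCDD1 at -4.64 in both, RNF43 at -3.01 and -3.03, MYC at 1.61 and 1.40, HSPA5 at 2.83 and 2.86, HSPA1A at 2.81 and 2.88, MT2A at 1.80 and 1.83 and KRT16 at 5.58 and 5.50. CTNNB1 was at -1.09 and -1.48, and in GLY library 1, at 105.6 CPM, was far below libraries 2 and 3, at 363.2 and 295.6 CPM. Other genes were further apart: IFIT2 was at -1.71 and -4.11, CYP1B1 at -1.65 and -2.71 and BCL2 at -0.93 and -1.62. By list, the Wnt targets gave 24 lower and 3 higher with PUE and 25 and 2 without it, and the unfolded protein response 11 higher and 9 higher.

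**Figure D4:**
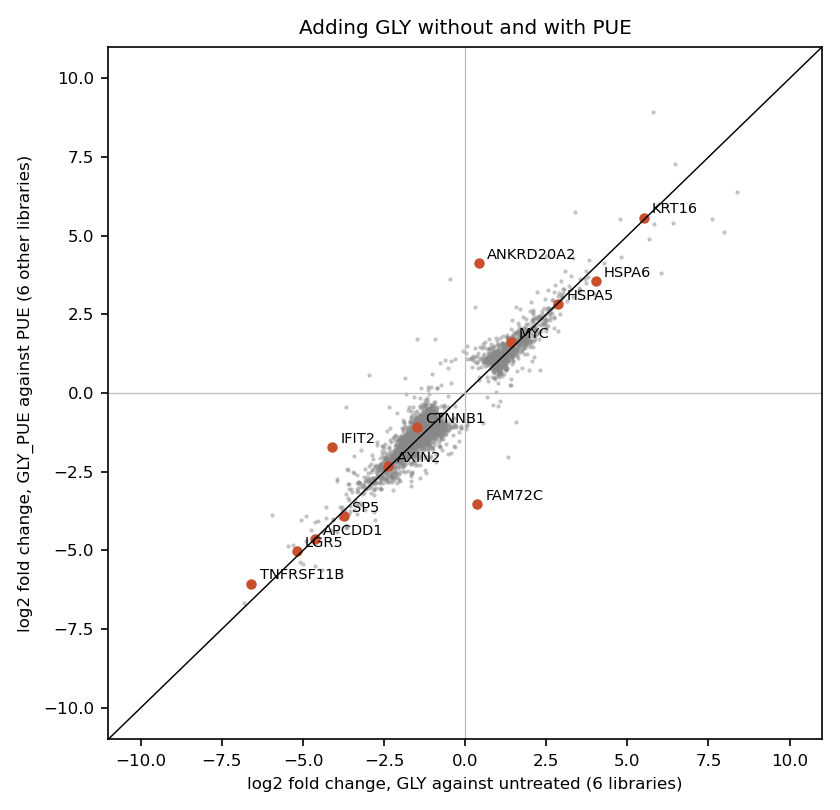
Log2 fold change of GLY against untreated (x axis) and of GLY_PUE against PUE (y axis) for the 3146 genes tested in both, which rest on separate libraries; the black line marks equal values. AXIN2, at -2.37 and -2.33, lies close to the line, while IFIT2, ANKRD20A2 and FAM72C lie away from it.

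The difference between the 2 contrasts was tested as the interaction term over all 12 libraries. Of 3429 genes, 0 passed (0%) with edgeR's quasi-likelihood test, and 33 (0.962%) had an unadjusted p under 0.05. That share is below the 0.05 that a test gives on average with no difference, so these p-values ran large. DESeq2 and limma-voom also called 0, with 22 and 35 at an unadjusted p under 0.05. The lowest adjusted p was 0.999. This does not show that the effects were equal. The 95% interval of the difference lay within -1 to 1 on the log2 scale for 627 genes (18.3%), and its median distance to either bound was 1.15. With the replicate number as a block it did so for 1067 genes (31.1%). For AXIN2 the difference was 0.04, with an interval of -0.58 to 0.66, for APCDD1 0.01 (-0.97 to 0.98), for MYC 0.21 (-0.57 to 1.00) and for SP5 -0.18 (-1.07 to 0.71). For HSPA5 it was -0.03 (-1.08 to 1.02) and for CTNNB1 0.39 (-0.66 to 1.44). These intervals leave room for differences of up to a log2 unit or more in most genes.

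The genes with the smallest unadjusted p for that difference were TDRD10, CORO7-PAM16, ANKRD20A2, CNKSR2, C17orf77 and FAM72C, all of them scarce. ANKRD20A2 was at 0.570, 0.146 and 0 CPM in PUE and at 3.15, 5.95 and 3.55 CPM in GLY_PUE (4.14), while GLY against untreated gave 0.42. Without PUE replicate 1 the 4.14 was 5.70. FAM72C was at 1.48, 2.77 and 4.64 CPM in PUE and at 0, 0.769 and 0 CPM in GLY_PUE (-3.53, adjusted p = 0.0164), against 0.37 without PUE. It was not called under TMM, with DESeq2 or without the libraries numbered 3, and was at -8.93 without GLY_PUE replicate 2. The -8.93 is no measured size, because the remaining GLY_PUE libraries were at 0. Both belong to families of near-identical copies, and CORO7-PAM16 is a read-through transcript, so their counts are uncertain.

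Markers of cell types could be read only in part, because the table is a selected list. Of 8 markers of colorectal epithelium, CDX2 and VIL1 were in it, with a summed level of 70.7 to 96.3 CPM in PUE and 13.5 to 15.4 CPM in GLY_PUE. Of 12 leukocyte markers, CD14 and CD68 were in it, at 5.37 to 5.99 and 17.8 to 23.5 CPM, and of 10 fibroblast markers PDGFRB, at 0.689 to 0.915 and 1.74 to 3.74 CPM. Of 7 neuron markers, SNAP25 and SYT1 summed to 28.0 to 66.6 CPM in PUE and 9.41 to 14.2 CPM in GLY_PUE. The table holds 0 of 8 endothelial and 0 of 8 retina markers, whose levels were not analysed here. The part of these markers in the changes above was not tested.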

How the data were processed

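RNA of SW480 cells was sequenced as libraries for the BGISEQ-500 platform from 0.5 µg of RNA, per the labels' protocols. The authors deposited 1 table, with 3699 genes in rows. Its columns, per the file headers, give a read count per gene and library, taken here as an estimated count deposited without normalization (58.2% were whole numbers), and an expression value without a named unit that behaves as FPKM. Log2 ratios of the authors' group comparisons, with p-values and q-values that the authors deposited beside them, were used only to see which genes were marked (absolute log2 ratio of at least 1 and q of at most 0.001, as tested on the values). The submitters' processing notes name TopHat and DESeq 1.32.0 without saying what for. A counter, a build or an annotation was not given in the sources used here.

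The table holds part of each library, so relative totals were recovered from the count to FPKM ratio over 625 genes (in every library, 100 counts or more and FPKM 5 or more) and set in reads by 39 genes with a single transcript in GENCODE release 29 (first untreated library 20.2 M, 95% interval 20.0 to 20.7). Rounded counts went into edgeR 4.0.16 (R 4.3.3; filterByExpr, robust quasi-likelihood fit of the 6 libraries, Benjamini-Hochberg over all genes tested). As alternatives, scaling was by TMM or RLE, the test was DESeq2 1.42.0 or limma-voom (limma 3.58.1), and the fit used no filter, a filter of at least 50 counts in every library of a group, all 12 libraries, a replicate block, libraries left out and stricter thresholds. Same-numbered PUE and GLY_PUE libraries deviated together from their group means (r = 0.41, 0.28 and 0.47 over 2308 genes). Number 2 of each group correlated more with the other group's number 1 (0.33 and 0.34) than with the other group's number 2 (0.28). These values set number 3 apart and do not show a pairing of numbers 1 and 2. Pairing by number is not stated in the labels. It was used for the replicate block and for differences within a number. The main edgeR fit had no block, so its SE and p-values ignore any pairing.

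The comparison, the gene lists and the rule for named genes were chosen with earlier results of these data known. Named genes are the 12 genes with the largest rise and the 12 with the largest fall, called, with a mean log2 CPM of at least 1, groups apart and no group at 0, up to 4 members of each list by p, 6 Wnt genes and the 6 smallest interaction p; some of these are not reported here. Other genes named (ASCL2, DKK1, SOX9, FZD7, FZD10, TCF7L2, DVL1, GINS4, RRM1, POLA1, BUB1, ECT2, IFIT1, LIMS3, IFIT2, XBP1, HSP90B1, HSP90AA1, CRYAB, DDIT3, ATF3, VLDLR, HMOX1, MT1A, SLC39A10, DDB2, RRM2B, NR4A2, DUSP6, SPRED1, SPRY2, FOSL1, EREG, KRT17, ANKRD37, EGLN3 and ISG20) were chosen after their values were seen. Promoters were matched by gene for 2474 of the 3236 tested genes.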

Additional observations from a re-analysis of the deposited data

How the results depend on the processing

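Genes called lower in GLY_PUE against PUE numbered 2150 on library totals, 539 with TMM and 569 with RLE scaling, and genes whose groups do not overlap 2902, 1771 and 1791. For GLY against untreated, 1851 genes were lower on library totals, 239 with TMM and 242 with RLE, and the share of genes with the same sign in both contrasts was 99.0%, 75.8% and 76.2%. With TMM and RLE scaling, BCL2 turned from -0.93 to 0.0812 and 0.0595, TEAD1 from -0.48 to 0.540 and 0.519, IDI1 from -0.99 to 0.0480 and 0.0263, and APC from -0.55 to 0.460 and 0.440.

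Leaving out 1 library in turn gave 689 to 724 genes higher and 1976 to 2233 lower in GLY_PUE against PUE. Leaving out 1 library in turn gave 348 to 645 genes higher and 1012 to 2076 lower in GLY against untreated; counts over 1.5 times lower came without untreated replicate 1, 2 or 3 and, for genes lower, GLY replicate 2, and the lowest without untreated replicate 3. Without replicate 3 of every group they were 247 and 767, and at an adjusted p under 0.01 they were 229 and 661. The correlation of the contrasts, 0.955, was 0.856 with no filter, 0.884 without the libraries numbered 3 and 0.903 to 0.961 when 1 library was left out, with the lowest value without GLY replicate 3. For the interaction, leaving out 1 library gave 0 or 1 gene lower; the 1 was LIMS3, a gene with a near-identical copy, without GLY_PUE replicate 2. The share of genes whose interaction interval lay within -1 to 1 was 9.63% to 41.0% with 1 library left out, the highest without GLY replicate 1.

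In the paired fit, with the replicate block, 766 genes were higher and 2298 lower in GLY_PUE against PUE, 601 and 2153 in GLY against untreated, and the interaction called 0. It gained calls for GPNMB, SOX9, FZD7 and FZD10 and, by the lists' counts, for further list members that the text does not name; it ended none. Its interaction interval lay within -1 to 1 for 31.1% of genes, against 18.3% without the block. Over 119 named genes and the alternatives run, 1708 values kept direction and call, 55 lost the call, 3 gained it and 8 reversed. Recovered totals rest on the FPKM behaviour of an unnamed column, and genes outside the table were not analysed here.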
